A study of Rattus norvegicus with 17 samples.

Results

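The protein kinase C family was examined at the level of 5 of its genes, Prkca, Prkcb, Prkcd, Prkce and Prkcz, in hippocampal tissue of aging rats (area CA1/CA2, left side). They were chosen by identifier as ENSRNOG00000003491 (Prkca), ENSRNOG00000012061 (Prkcb), ENSRNOG00000016346 (Prkcd), ENSRNOG00000015603 (Prkce) and ENSRNOG00000015480 (Prkcz), and all 5 were found among the 26402 genes of the table. The pairing of symbols with identifiers was fixed with the choice of genes, because the table itself holds identifiers without names. RNA was sequenced from 17 male rats of the Fisher-344 (Fischer-344) strain aged 12 months, with 1 library per rat. Of these, 10 received vehicle (polyethylene glycol) and 7 received Enzastaurin (ENZ) at 25 mg/kg in the same carrier, injected under the skin on each of 3 days of Morris maze testing. All rats, vehicle rats included, were trained in the maze and killed directly after its probe trial. The protocol counts 1 further ENZ rat beyond the 7 labelled ones, which is not analysed here. Tissue was homogenized whole, so fewer cells of a type and less RNA per cell cannot be told apart.

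Protein kinase C enzymes are serine/threonine kinases that carry signals from membrane lipids to their substrates. The conventional isoforms, α (from Prkca) and β (from Prkcb), need calcium and diacylglycerol. The δ (Prkcd) and ε (Prkce) isoforms respond to diacylglycerol without calcium, and the atypical ζ isoform (Prkcz) needs neither. In hippocampal neurons, conventional isoforms phosphorylate synaptic proteins such as neurogranin and neuromodulin, and a form of the ζ isoform that lacks its regulatory domain, PKMζ, is made in brain from an internal promoter. ENZ competes with ATP in the catalytic domain and is selective for the β isoform, so its direct target is the Prkcb protein rather than the transcript. The comparison here therefore asks whether transcripts of the target or of its relatives differed after dosing. Gene-level counts do not separate the βI and βII splice forms of Prkcb, nor PKMζ from the full-length product of Prkcz.

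Values are normalized counts, which are reads on a gene divided by 1 size factor per rat. Reads on genes ran from 2716777 to 20731523 in every rat but vehicle rat G1_80, which had 33422. Depth was unequal between the groups: without G1_80 the median was 8710997 in vehicle rats (highest 20731523) and 5182015 in ENZ rats (highest 11531705). In rat G1_80 the 5 isoforms together rest on few reads, with 14 on Prkcb, 13 on Prkce, 2 on Prkcz, 1 on Prkca and 0 on Prkcd. In the other 16 rats each isoform had at least 330 reads, except Prkcd, which had 37 to 181. Results are therefore given for the 16 rats without G1_80 (9 vehicle and 7 ENZ) and then for all 17. Among the 16, vehicle rat G1_44 lay farthest from the median profile of all genes, with a root mean square difference of 0.48 log2 units from it, and the next was ENZ rat G2_62 with 0.40. Defining marker genes of CA1/CA2 were not analysed here, because the reference gene table matched 0 of the identifiers.

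Prkcb, the gene of the drug's target, was measured in every rat, and its group means differed by less than the spread within either group. It was at 1956 ± 479.3 normalized counts (SD, n = 9) in the vehicle group, with a lowest value of 1339 (rat G1_18), a median of 1934 and a highest value of 2549 (rat G1_89). In the ENZ group it was at 2130 ± 489.0 (SD, n = 7), from 1633 (rat G2_161) through a median of 1925 to 2774 (rat G2_62). The ranges overlapped, with 5 of the 7 ENZ rats inside the vehicle range and rats G2_62 and G2_71 above it. The log2 fold change, ENZ over vehicle, was 0.13 (standard error 0.16, 95% interval -0.20 to 0.46, limma adjusted p = 0.99979). As a fold this is 1.10, with an interval of 0.873 to 1.37. Over the 11440 possible splits of the rats, the exact two-sided permutation p was 0.464. With rat G1_80, at 1447 normalized counts, the log2 fold change was 0.17 (95% interval -0.18 to 0.53, exact permutation p = 0.336).

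Prkca, which encodes the other conventional isoform, had the widest spread of the 5 relative to its mean. It was at 705.1 ± 203.0 normalized counts (SD, n = 9) in the vehicle group, from 528.4 (rat G1_89) through a median of 645.4 to 1186 (rat G1_53). In the ENZ group it was at 771.4 ± 351.9 (SD, n = 7), from 444.7 (rat G2_152) through a median of 611.4 to 1413 (rat G2_125). The ENZ rats lay on both sides of the vehicle rats, and 4 of 7 fell inside the vehicle range. The log2 fold change was 0.06 (standard error 0.21, 95% interval -0.39 to 0.50, limma adjusted p = 0.99979), and the exact permutation p was 0.819. Its direction turned with single ENZ rats: it was -0.035 without rat G2_116 and -0.11 without rat G2_125. The single Prkca read in rat G1_80 raised the log2 fold change to 0.33 (95% interval -0.47 to 1.13).

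Prkcd, whose product is a calcium-independent isoform, had the fewest reads. It was at 56.4 ± 12.8 normalized counts (SD, n = 9) in the vehicle group, from 33.8 (rat G1_18) through 53.8 to 76.3 (rat G1_134). In the ENZ group it was at 53.3 ± 9.02 (SD, n = 7), from 38.1 (rat G2_125) through 54.6 to 63.9 (rat G2_152), and all 7 ENZ rats fell inside the vehicle range. The log2 fold change was -0.06 (standard error 0.15, 95% interval -0.37 to 0.24, limma adjusted p = 0.99979) with an exact permutation p of 0.692. Without ENZ rat G2_125 it was 0.013. Over all 17 rats it was 0.52 with a 95% interval of -0.94 to 1.97. That value rests on the 0 reads of rat G1_80, where a count of 0 allows up to 381.3 normalized counts (exact Poisson interval, counting error only), which is above every other rat.

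Prkce, whose product is the ε isoform of presynaptic terminals, was nearly equal in the groups. It was at 1317 ± 197.7 normalized counts (SD, n = 9) in the vehicle group, from 1045 (rat G1_89) through 1270 to 1571 (rat G1_18). In the ENZ group it was at 1319 ± 134.5 (SD, n = 7), from 1121 (rat G2_71) through 1302 to 1501 (rat G2_116). All 7 ENZ rats were inside the vehicle range. The log2 fold change was 0.01 (standard error 0.089, 95% interval -0.18 to 0.20, limma adjusted p = 0.99979), the exact permutation p was 0.915, and with rat G1_80 the log2 fold change was 0.0059. Leaving out any one of vehicle rats G1_107, G1_44 and G1_89 or ENZ rats G2_116, G2_125 and G2_161 turned it negative, to between -0.030 and -0.0041. In the GRCr8 gene table the number of genes that overlap the span of Prkce is 3, among them the long noncoding RNA Prkcel1 on the opposite strand, and 1 long noncoding RNA overlaps Prkcb. The strand setting of the counting is not given in the sources used here, so reads from such overlaps may not be told apart.

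Prkcz, which encodes the atypical isoform, was the steadiest. It was at 855.9 ± 30.9 normalized counts (SD, n = 9) in the vehicle group, from 795.3 (rat G1_107) through 860.1 to 890.04 (rat G1_89). In the ENZ group it was at 842.3 ± 31.7 (SD, n = 7), from 798.2 (rat G2_152) through 856.2 to 874.4 (rat G2_62), and all 7 ENZ rats were inside the vehicle range. The log2 fold change was -0.02 (standard error 0.039, 95% interval -0.10 to 0.059, limma adjusted p = 0.99979; exact permutation p = 0.400). The interval, a fold of 0.930 to 1.04, is the narrowest of the 5 genes. With rat G1_80 the log2 fold change was 0.18 and the interval widened to -0.32 to 0.68. The 2 Prkcz reads of rat G1_80 correspond to 206.7 normalized counts (exact Poisson 95% interval 25.03 to 746.7). On this scale the interval is below the other 16 rats, and the low value rests on those 2 reads and on the size factor. The normalized counts of rat G1_80 total 3454427, against 5077163 in rat G1_18, the next lowest. As a share of reads on genes, the same Prkcz interval takes in the values of the other 16 rats. Over all 17 rats the middle gene of those tested shifted by 0.16 (log2), close to the 0.18 of Prkcz.

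**Figure D1:**
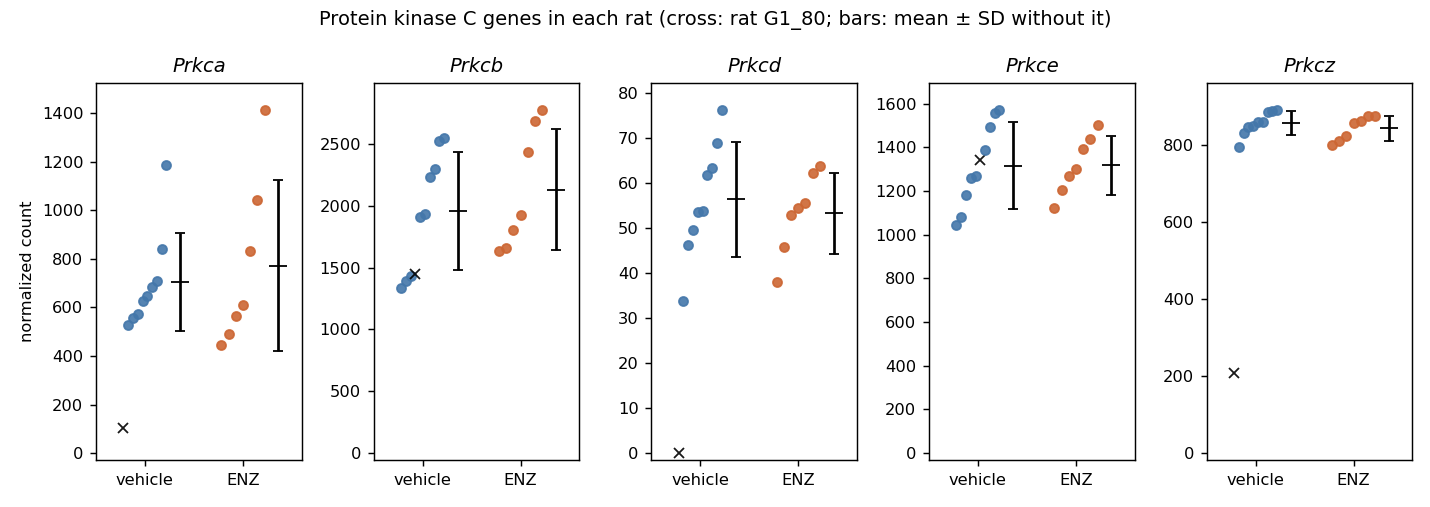
Normalized count (vertical axis, linear, 1 panel per gene) of each isoform in the vehicle and ENZ groups; circles are rats, the cross is vehicle rat G1_80, and the bars are the mean ± SD without it (n = 9 and n = 7). The groups overlap in every panel, Prkca spreads from 444.7 to 1413 without rat G1_80, and Prkcz stays between 795.3 and 890.04.

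Across the family, 0 of 5 isoforms passed an adjusted p of 0.05 by limma over the 16 rats, where 0% of the 13853 genes tested did so. At an unadjusted p under 0.05, 0 of 5 isoforms stood against 2.34% of all genes tested (324 genes). The DESeq2 Wald test and the edgeR quasi-likelihood test on recovered whole reads of the same rats also called 0 genes after adjustment, with 309 and 338 at an unadjusted p under 0.05. Over all 17 rats limma called 0 of 5 isoforms and 0% of 13844 genes after adjustment, and 0 of 5 isoforms and 0.274% of genes (38) before it. The unadjusted limma p-values of the isoforms over 16 rats ran from 0.411 for Prkcb to 0.909 for Prkce. These p-values miss the threshold, which does not show that the groups were equal. The 95% limma intervals, each for its own gene and unadjusted, give the folds compatible with the data at that level. They were 0.873 to 1.37 for Prkcb, 0.765 to 1.41 for Prkca, 0.775 to 1.18 for Prkcd, 0.885 to 1.15 for Prkce and 0.930 to 1.04 for Prkcz. Folds outside them are not excluded. Replicates are rats, but the labels name no litter or testing squad, so neither could be entered in the fit.

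**Figure D2:**
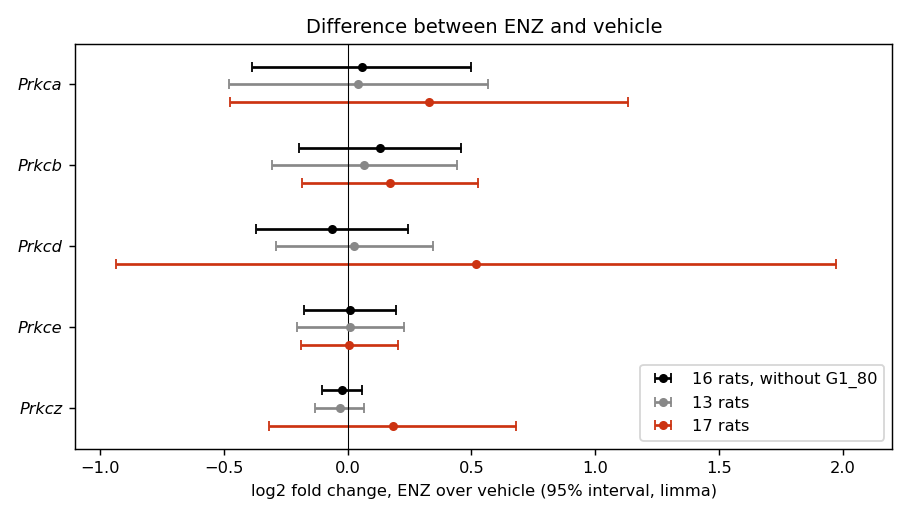
Log2 fold change, ENZ over vehicle (horizontal axis), of each isoform with its 95% limma interval, for the 16 rats without G1_80 (black), a smaller set of 13 rats, without vehicle rats G1_134, G1_44, G1_8 and G1_80 (grey) and all 17 rats (red). Every interval spans 0, and those of Prkca, Prkcd and Prkcz are wider in red, up to -0.94 to 1.97 for Prkcd.

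The isoforms varied among rats to very different degrees. Over the 16 rats the SD as a percentage of the mean (coefficient of variation) was 36.7% for Prkca, 23.4% for Prkcb, 20.04% for Prkcd, 12.7% for Prkce and 3.64% for Prkcz. Counting error alone would give 3.35%, 2.04%, 12.8%, 2.51% and 3.15% in the same order. The spread of Prkcz was therefore close to what counting gives, while Prkca and Prkcb varied many times more than their counts require. Among the 13853 genes tested, whose median coefficient was 13.8%, 0.137% had a coefficient at or below that of Prkcz, and 91.1% at or below that of Prkca. Because the coefficient falls with depth, each gene was also placed among genes within 0.5 log2 units of its mean count. There Prkcz stood at the 0.499 percentile of 1002 genes, Prkca at the 98.96 percentile of 1157 and Prkcb at the 95.8 percentile of 333. Prkce was at the 77.98 percentile of 595 genes and Prkcd at the 71.95 percentile of 1968. These percentiles describe the 16 libraries and are not tests. The highest rat exceeded the lowest 3.18-fold for Prkca, 2.07-fold for Prkcb, 2.26-fold for Prkcd, 1.504-fold for Prkce and 1.12-fold for Prkcz.

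**Figure D3:**
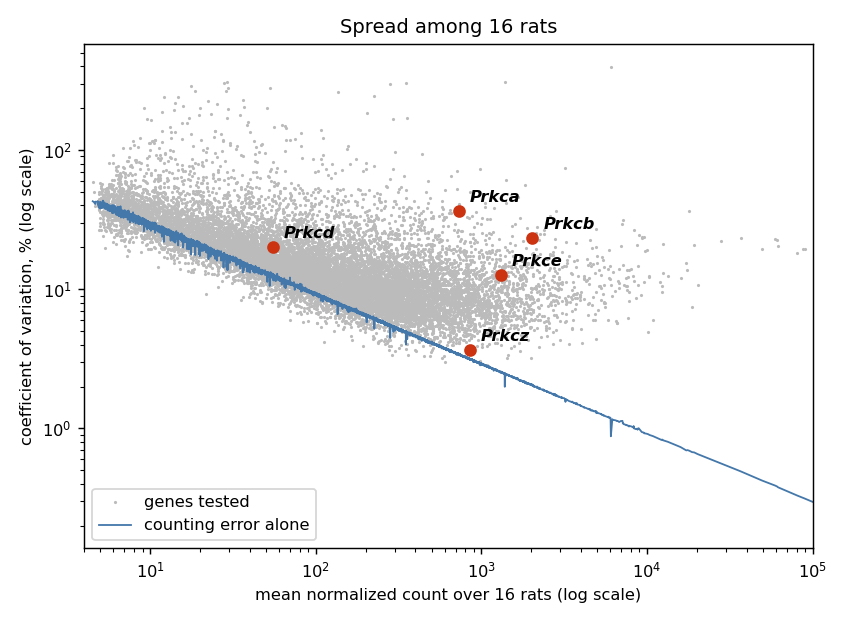
Coefficient of variation over 16 rats in percent (vertical axis, log scale) against the mean normalized count (horizontal axis, log scale); grey points are the genes tested, the line is the coefficient that counting error alone gives, and red points are the 5 isoforms. Prkcz, at 3.64%, lies on the lower edge of the cloud close to the line, and Prkca, at 36.7%, lies near its upper edge.

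The letters around the start of transcription are shown for 3 isoforms: Prkcz, the steadiest gene, and Prkcd and Prkce, the pair that moved in opposite directions among rats (described next). They are RefSeq sequences of assembly GRCr8, matched by symbol, and hold 250 bases before and 50 after the gene start. The windows are chr5:171212625-171212924 for Prkcz, chr16:5805790-5806089 for Prkcd and chr6:14204239-14204538 for Prkce, all on the minus strand and printed 5′ to 3′ along the gene. Of the 5 isoforms 4 have an entry, and Prkcb has none. Capitals mark GC boxes (GGGCGG, or CCGCCC on the other strand) and CCAAT boxes (CCAAT, or ATTGG on the other strand), whose matches do not overlap each other.
Prkcz: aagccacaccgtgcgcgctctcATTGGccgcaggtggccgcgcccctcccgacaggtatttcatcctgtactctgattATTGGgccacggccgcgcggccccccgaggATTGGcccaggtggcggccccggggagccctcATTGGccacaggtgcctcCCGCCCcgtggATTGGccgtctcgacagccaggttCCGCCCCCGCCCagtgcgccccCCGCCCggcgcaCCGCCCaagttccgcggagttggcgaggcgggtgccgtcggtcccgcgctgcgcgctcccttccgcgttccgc
Prkcd: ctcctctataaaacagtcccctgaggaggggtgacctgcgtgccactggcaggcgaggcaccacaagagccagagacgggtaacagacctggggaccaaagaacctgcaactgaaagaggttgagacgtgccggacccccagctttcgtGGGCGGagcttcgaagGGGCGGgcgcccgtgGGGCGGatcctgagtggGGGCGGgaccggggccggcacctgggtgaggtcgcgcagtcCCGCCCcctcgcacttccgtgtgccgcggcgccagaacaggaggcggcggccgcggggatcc
Prkce: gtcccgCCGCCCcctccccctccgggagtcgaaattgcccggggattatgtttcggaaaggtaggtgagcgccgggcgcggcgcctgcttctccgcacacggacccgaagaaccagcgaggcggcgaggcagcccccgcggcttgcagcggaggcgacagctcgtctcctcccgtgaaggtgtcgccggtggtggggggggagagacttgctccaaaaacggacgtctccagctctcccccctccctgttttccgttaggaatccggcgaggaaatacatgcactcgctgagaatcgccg

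The Prkcz window held 5 matches to the GC box and 5 to the CCAAT box. Prkcd had 5 GC boxes, Prkca 2 and Prkce 1, and none of these 3 windows had a CCAAT match. Of the 33469 promoter windows of this length in the table, 33.1% held a GC box and 37.5% a CCAAT box. The E-box CACGTG was searched on both strands, with 0 matches in the 4 windows and a match in 6.42% of all windows. The short cyclic AMP response motif TGACG, searched on both strands, had 0 matches in the 4 windows and was present in 21.2% of all. The 4 windows are rich in G and C, at 73.3% for Prkca and Prkcz, 69.0% for Prkcd and 66.3% for Prkce, against a median of 51.7% over all windows. The Prkcz window belongs to the start of the gene and does not cover the internal promoter of PKMζ. A match describes letters only and says nothing of binding in these rats.

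Whether the isoforms varied together was asked over the 16 rats, in all 10 pairs. Prkcd and Prkce moved in opposite directions: rat G1_18, lowest in Prkcd at 33.8 normalized counts, was highest in Prkce at 1571, while rat G1_89, lowest in Prkce at 1045, had 63.3 in Prkcd. Pearson's r on the log2 scale was -0.72 (permutation p = 0.00152, adjusted over the 10 pairs 0.0152), and Spearman's rho was -0.78 (permutation p = 0.00072, adjusted 0.0072). Without the 2 rats farthest from the median of Prkcd (G1_18 and G2_125) r was -0.66 (permutation p = 0.0111). It was -0.75 within the vehicle group (exact permutation p = 0.0173, adjusted over the 10 pairs 0.173) and -0.64 within the ENZ group (exact permutation p = 0.116, adjusted 0.25), so it passed the adjustment in neither group alone. It was -0.67 after the log10 of reads on genes was fitted out. Leaving out each rat in turn gave -0.76 to -0.66, and the adjusted p stayed under 0.05 in all 16 fits. Of all other genes tested, 0.462% had an r with Prkcd as low or lower, and 0.736% with Prkce. The Prkcd and Prkce values of a rat share 1 library and 1 size factor.

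Over the 16 rats no other pair passed the adjustment over 10 pairs. Prkca and Prkce had an r of 0.60 (permutation p = 0.0132, adjusted 0.0660) and a rho of 0.59 (permutation p = 0.0184, adjusted 0.0612), and rats G2_116 and G1_53 were high in both genes. Without the 2 rats farthest from the median of Prkca (G1_53 and G2_125) r was 0.52 (permutation p = 0.0589). Without vehicle rat G1_18 it was 0.73 (permutation test, adjusted p = 0.01), without vehicle rat G1_107 it was 0.65 (adjusted 0.0465) and without ENZ rat G2_152 it was 0.65 (adjusted 0.0463). Prkca and Prkcd had an r of -0.52 (permutation p = 0.0382, adjusted 0.0954; rho -0.62, permutation p = 0.0131, adjusted 0.0612), which was -0.34 without the same 2 rats and -0.77 (adjusted 0.0060) without rat G1_18. Prkcb and Prkce had an r of -0.54 (permutation p = 0.0336, adjusted 0.0954; rho -0.54, permutation p = 0.0328, adjusted 0.0820), and -0.42 without rats G1_18 and G2_62. In the ENZ group alone, r was -0.91 for Prkcb with Prkce (exact permutation p = 0.00595, adjusted 0.0298) and -0.92 for Prkca with Prkcd (exact permutation p = 0.00317, adjusted 0.0298), against -0.40 and -0.22 in the vehicle group. That adjustment covers the 10 pairs within the 7 ENZ rats only, and these r values were not recomputed without single ENZ rats. Rat G2_125 was both highest in Prkca (1413) and lowest in Prkcd (38.1) among ENZ rats. The difference between the groups in these values was not tested. Prkca with Prkcb gave -0.25, Prkcb with Prkcd 0.31, and Prkcz between -0.22 and 0.052 with each of the others, and these pairs had adjusted permutation p-values of 0.475 or higher. The spread of Prkcz was close to counting error, which holds its r low, so its pairs can hardly show whether it varied with the others.

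**Figure D4:**
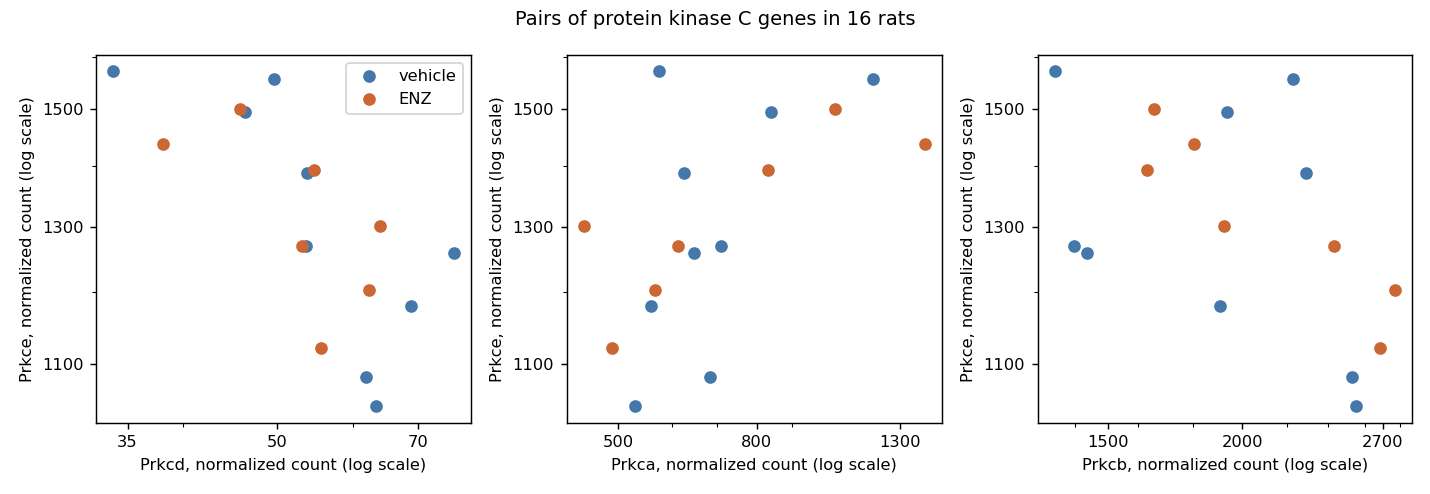
Normalized counts of Prkce (vertical axes, log scale) against those of Prkcd, Prkca and Prkcb (horizontal axes, log scale) in the 16 rats without G1_80; blue circles are vehicle rats and orange circles ENZ rats. Prkce falls as Prkcd rises (r = -0.72) with vehicle and ENZ rats intermingled.

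Depth moved with none of the isoforms past the adjustment. Pearson's r with the log10 of reads on genes was -0.42 for Prkcd, 0.33 for Prkce, 0.19 for Prkca, 0.14 for Prkcz and -0.033 for Prkcb over 16 rats. Permutation p-values adjusted over these 5 relations were 0.509 or higher, and those of Spearman's rho (-0.50 for Prkcd) were 0.256 or higher. Without the 2 rats farthest from the median depth, r was -0.21 for Prkcd and between -0.27 and 0.23 for the others.

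The share of Prkcb relative to its relatives was compared as a ratio within each rat, which does not depend on the size factor. These are ratios of counts, not of transcript levels, because transcript lengths were not used here. Prkcb over Prkca ran from 1.88 to 4.82 among vehicle rats and from 1.28 (rat G2_125) to 5.49 (rat G2_71) among ENZ rats, so the ENZ rats held both extremes. For Prkcb over Prkce the vehicle rats spanned 0.852 (rat G1_18) to 2.44 (rat G1_89) and the ENZ rats 1.103 to 2.39. The mean log2 ratio, ENZ minus vehicle, was 0.07 for Prkca, 0.19 for Prkcd, 0.12 for Prkce and 0.15 for Prkcz. Two-sided exact permutation p-values were 0.829, 0.341, 0.621 and 0.391, and adjusted over the 4 ratios they were 0.783 or higher. The difference for Prkca was negative without ENZ rat G2_152 (-0.020), G2_62 (-0.049) or G2_71 (-0.077). With rat G1_80, the differences were -0.16 for Prkca, 0.16 for Prkce and -0.011 for Prkcz, while the ratio to Prkcd could not be formed in that rat. Its Prkca and Prkcz ratios, 14.0 and 7.0, rest on 1 and 2 reads.

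**Figure D5:**
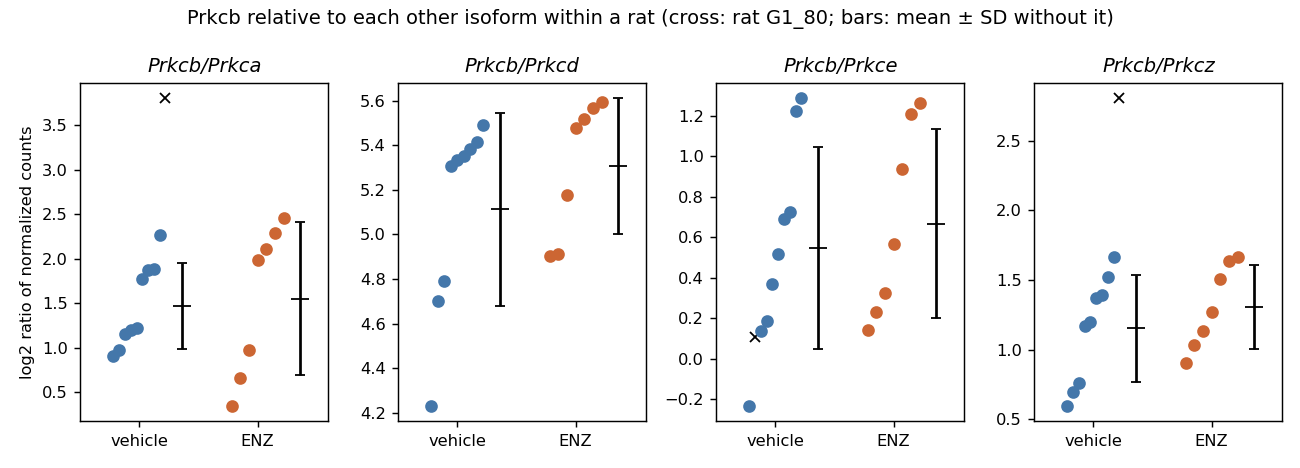
Log2 ratio of the normalized count of Prkcb to that of each other isoform within a rat (vertical axes), by group; circles are rats, the cross is vehicle rat G1_80, and bars are the mean ± SD without it (n = 9 and n = 7). The groups overlap in each panel, and for Prkca and Prkcz the cross lies above all other rats.

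The genes whose values followed Prkcb most closely over the 16 rats were ENSRNOG00000026128 and ENSRNOG00000017114, which the table does not name. ENSRNOG00000026128 had a Pearson r of 0.97 and a Spearman rho of 0.97 with Prkcb, and ran from 94.4 normalized counts in rat G1_18 through a median of 155.4 to 245.8 in rat G2_71. ENSRNOG00000017114 had an r of 0.96 and a rho of 0.96, and ran from 312.7 in rat G1_98 through 496.6 to 765.6 in rat G2_62. Their log2 fold changes, ENZ over vehicle, were 0.13 (standard error 0.17) and 0.07 (standard error 0.18), each with a limma adjusted p of 0.99979. They were picked as the highest of 13852 values of r, so no test is given. At an absolute r of 0.8 or more, Prkcb had 122 positive and 46 negative partners (1.21% of 13852 genes) and Prkca 228 and 47 (1.99%). Prkce had 71 and 19 (0.650%), Prkcd 8 and 11 (0.137%), and Prkcz 2 and 1 (0.0217%). Prkca and Prkcb, which varied most among rats, had the most partners, and Prkcz, which varied least, the fewest. Counting error limits how high r can be. It would alone give 3.15% for Prkcz, whose coefficient of variation was 3.64%, and 12.8% for Prkcd, at 20.04%. The order is therefore not read as a property of the isoforms, and the share for a typical gene was not computed.

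Vehicle rat G1_44, the rat farthest from the median profile, was neither the highest nor the lowest of the 16 rats in any isoform. It was at 557.9 normalized counts for Prkca, 1906 for Prkcb, 68.9 for Prkcd, 1181 for Prkce and 829.4 for Prkcz. For Prkcd only rat G1_134 was higher, at 76.3. Without rat G1_44 the log2 fold changes were 0.020 for Prkca, 0.13 for Prkcb, -0.023 for Prkcd, -0.0075 for Prkce and -0.029 for Prkcz, with limma adjusted p-values of 0.99978.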

How the data were processed

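RNA of the left CA1/CA2 region was sequenced from 17 rats (10 vehicle, 7 ENZ), grouped by the treatment label. The authors trimmed adapters, aligned to rn5 with STAR (2.4.0a) and counted with featureCounts (1.4.4). The deposited signal values are those read counts divided by 1 DESeq2 size factor per rat, and the annotation release is not given in the sources used here. Whole reads were recovered from the value of 1 read: 100% of values above 0 came out whole to within 0.01 read in each rat. Intervals on reads cover counting error only.

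The test of ENZ against vehicle was that of limma (3.58.1, in R 4.3.3), with a mean-variance trend and no covariates. It was run on log2(normalized count + 1) for genes whose median reached 5, and p-values were adjusted over all genes tested by the Benjamini-Hochberg method. The added 1 understates the change of low genes. Single values were compared by exact permutation, and correlations by 100000 permutations, in Python (3.11.15). The fit was tested on counts simulated for the 16 rats, with 200 genes changed. It recovered 30% of them at a fold of 1.3, 70% at 1.6 and 86.5% at 2, and called 3, 5 and 8 unchanged genes. Changes of the smaller folds can therefore be missed. These shares are averages over genes that were simulated independently, with 200 changed at once. They do not give the chance of finding a change in an isoform. Prkca and Prkcb varied more among rats than most genes of like count. As alternatives, recovered reads were tested with edgeR (4.0.16) and DESeq2 (1.42.0).

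The genes, the lists and the rule for genes named (the 5 isoforms and the 2 genes most like Prkcb) were chosen with earlier results of these data known. Lists of PKC pathway and cell type genes were not analysed, because 0 identifiers matched the gene table, nor were levels per transcript length. Alternatives were other sets of rats, pseudocounts, filters, scalings, tools and weights. A smaller set of 13 rats (6 vehicle, 7 ENZ) leaves out vehicle rats G1_134, G1_44, G1_8 and G1_80. It was planned as the set behind the study's mean counts, but that is an inference and conflicts with the study's own text, which removes 2 outliers it does not name and gives 7 rats per group, so it is used here only as another set of rats. Alternatives added after the data were seen are named as such.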

Additional observations from a re-analysis of the deposited data

Results flagged for a closer look

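Each isoform and ratio was searched for single rats that stood apart, meaning that the distance to the next rat, as a share of the whole range, passed Dixon's 95% limit. The search covered 27 pairs of a measure and a set of rats, of which 5 passed, where chance gives about 1.4, and all 5 were vehicle rat G1_80 among 10 vehicle rats. That rat had already been set apart for its few reads, and its ratios reuse the reads of its isoforms. The 5 are therefore 1 library seen several times, not an excess of separate outliers over chance. On the log2(normalized count + 1) scale it was at 6.71 for Prkca (the next lowest vehicle rat at 9.05), at 0 for Prkcd (next 5.12) and at 7.70 for Prkcz (next 9.64). Its log2 ratio of Prkcb to Prkca was 3.81 (next highest 2.27) and that of Prkcb to Prkcz was 2.81 (next 1.67). These values rest on 1 read of Prkca, 0 of Prkcd, 2 of Prkcz and 14 of Prkcb. For Prkcb, Prkce and the ratio between them, rat G1_80 was not marked. Without rat G1_80 none of the isoforms or ratios marked a rat in the vehicle group of 9 or the ENZ group of 7.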

How the results depend on the processing

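Under every alternative run, 0 genes and none of the isoforms had an adjusted p under 0.05, and with each rat left out in turn the count was 0 to 0. Prkcb kept its direction throughout, at 0.062 to 0.19 (log2 fold change) when each rat was left out. Small values turned: Prkcd from -0.06 to 0.52 over all 17 rats and to 0.028 over 13 rats, without vehicle rats G1_134, G1_44, G1_8 and G1_80, Prkcz from -0.02 to 0.18 over all 17 rats, and Prkce from 0.01 to -0.0011 with DESeq2, -0.00042 with edgeR and -0.025 with array weights. With rat G1_80 the middle gene of all those tested shifted by 0.16 (log2), against -0.0043 without it. Leaving out each rat gave -0.11 to 0.17 for Prkca, -0.15 to 0.013 for Prkcd, -0.030 to 0.048 for Prkce and -0.036 to -0.010 for Prkcz. The ratio of Prkcb to Prkca (log2, ENZ minus vehicle) was -0.16 and that to Prkcz -0.011 over all 17 rats, and leaving out each rat gave -0.077 to 0.27 for the ratio to Prkca, turning negative without ENZ rats G2_152, G2_62 or G2_71. For the other turns the cause was not tested.

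Within vehicle rats alone, r was 0.13 for Prkca with Prkcb, -0.19 for Prkcb with Prkcz and -0.75 for Prkcd with Prkce, the last with an adjusted p of 0.173 over 10 pairs in a permutation test of fewer rats. Within ENZ rats alone, r was -0.92 for Prkca with Prkcd, -0.91 for Prkcb with Prkce, -0.64 for Prkcd with Prkce, 0.29 for Prkcd with Prkcz and -0.52 for Prkce with Prkcz. Recomputed size factors, and residuals from the group means (added after the data were seen), left each pair on its side of the threshold. Leaving out each rat, also added, gave -0.77 to -0.36 for Prkca with Prkcd, 0.53 to 0.73 for Prkca with Prkce, -0.048 to 0.21 for Prkcb with Prkcz (negative without G1_143, G1_89, G2_116 or G2_62), -0.28 to 0.047 for Prkcd with Prkcz (positive without G1_18) and -0.17 to 0.25 for Prkce with Prkcz (negative without G1_107 or G1_18). The count at an unadjusted p under 0.05, 324, was 38 over all 17 rats, 625 without a filter and 201 with a median of at least 50. Levels per length were not run. No paired analysis was possible because the groups share no rat number.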
